A study of Mus musculus with 12 samples.

Results

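The genes described here are 10 enzymes and lipid droplet proteins of hepatic triglyceride synthesis and breakdown, Gpam, Agpat2, Lpin1, Lpin2, Dgat1, Dgat2, Mogat1, Pnpla2, Pnpla3 and Mgll. They were chosen by symbol from the 55357 genes of the read count table. Each symbol matched 1 gene, and all 10 were among the 17358 genes with enough reads to be tested. Mogat1 reached the level of that filter in only 2 libraries, both WT CDAHFD. Liver RNA was sequenced from male C57BL/6J mice, 7 weeks old at the start and 13 weeks old at sampling, after 6 weeks on a chow diet or on CDAHFD, a high-fat diet that lacks choline and holds defined amino acids. The WT mice were PPARa fl/fl AlbuminCre +/+ and gave 4 libraries on chow (WT chow) and 3 on CDAHFD (WT CDAHFD). The KO mice were PPARa fl/fl AlbuminCre Tg/+ and gave 2 libraries on chow (KO chow) and 3 on CDAHFD (KO CDAHFD), while the study's methods state 3 mice per group. All 12 mice thus carried the floxed alleles, and the albumin-driven Cre of the KO mice acts in hepatocytes, so that other liver cells keep the gene.

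Triglycerides are built on a glycerol 3-phosphate backbone. A glycerol-phosphate acyltransferase adds the first fatty acid, an acylglycerol-phosphate acyltransferase adds the next, a lipin removes the phosphate to give diacylglycerol, and a diacylglycerol acyltransferase completes the molecule. A monoacylglycerol acyltransferase offers another route to diacylglycerol. Breakdown on the lipid droplet begins with the lipase encoded by Pnpla2, which needs the activator ABHD5 and is inhibited by G0S2 and HILPDA, and ends with monoacylglycerol lipase, encoded by Mgll. In the liver the balance of both routes sets how much fat is stored, secreted in lipoproteins or oxidised.

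The main pattern in these data was a lower level of several synthesis genes and of Mgll in each of the 3 other groups than in WT chow on the TMM scale described next, with Dgat2 the gene that kept all 3 calls when libraries were scaled by size alone. Values are given as CPM, read counts relative to library sizes scaled by TMM, a method that assumes most genes do not change, and levels of different genes are compared only per kilobase of exon (RPKM). A gene was called changed at an adjusted p under 0.05 in edgeR's quasi-likelihood test over all 17358 genes. In KO chow, 4 of the 10 genes were called, all lower, beside 39% of all genes tested (17% lower). In WT CDAHFD, 5 were called, all lower, beside 51.1% of all genes (25% lower). In KO CDAHFD, 7 were called, all lower, beside 52.4% of all genes (25.4% lower). The share called in either direction was thus close to that of all genes in KO chow and in WT CDAHFD. The median log2 fold change over the 10 genes was -0.48, -0.57 and -1.02 in this order, against 0.002, -0.05 and -0.04 over all genes tested. These 3 comparisons share the WT chow libraries and are not independent of each other.

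**Figure D1:**
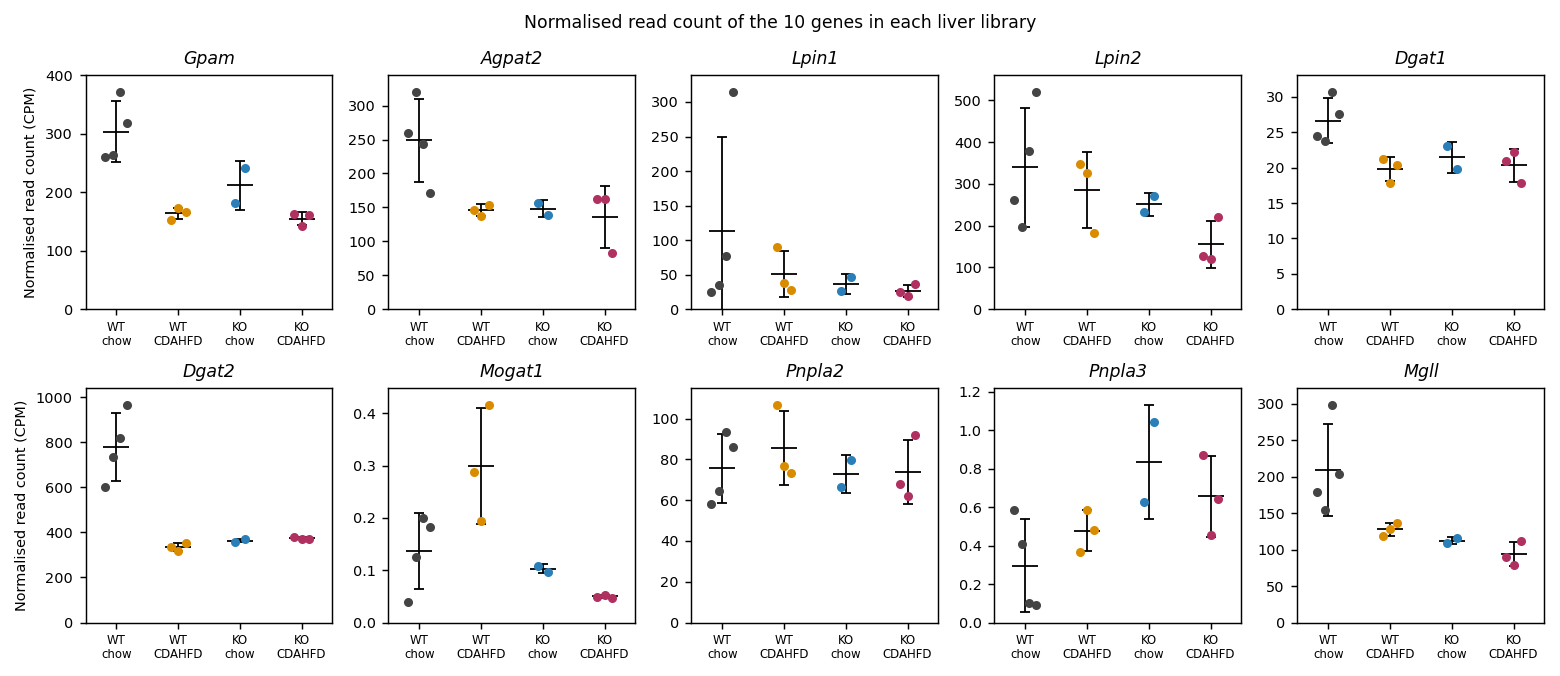
Normalised read count (CPM, vertical axis from 0, a separate scale per gene) of the 10 genes in each of the 12 libraries by group. Points are libraries, and the horizontal line and bar are the mean ± SD (the lower bar of Lpin1 in WT chow is cut off at 0). For Gpam, Agpat2, Dgat1, Dgat2 and Mgll the 4 WT chow libraries lie above the other 8.

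The CPM of single libraries showed the same split, on the same TMM scale. For 5 of the 10 genes (Gpam, Agpat2, Dgat1, Dgat2 and Mgll) every WT chow library lay above the other 8, which held for 15.6% of all genes tested. None of the 10 had every WT chow library below the other 8, against 19.7% of all genes tested.

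Several features of the whole series touch these results. Total counts ran from 29906785 to 43551003 per library. Ppara, the targeted gene, ran from 14.4 to 51.9 CPM in the KO libraries and from 59.5 to 238 CPM in the WT libraries, so that every KO library was below every WT library. The KO chow libraries differed from WT chow at 39% of genes and from WT CDAHFD at 6.12%, and their summed stellate cell, macrophage, cholangiocyte and lymphocyte markers lay above WT chow, while the endothelial ones overlapped with it (142.6 to 203.7 against 155.3 to 235.4 CPM). The summed level of 6 stellate cell markers was 705 to 837 CPM in KO chow, 51.2 to 147 CPM in WT chow and 890 to 939 CPM in WT CDAHFD, with 3 of the 6 called higher in KO chow. That of 7 macrophage markers was 1070 to 1237 CPM in KO chow and 270.2 to 510.1 CPM in WT chow, and 6 of the 7 were called higher in each of the 3 other groups than in WT chow. The sum of 6 hepatocyte markers was 80266 to 99601 CPM in WT chow, 69207 to 79335 CPM in KO chow, 41463 to 51175 CPM in WT CDAHFD and 39376 to 53851 CPM in KO CDAHFD. In bulk liver, fewer cells of a type and less RNA per cell cannot be told apart, and the part of these marker changes in the results on the 10 genes was not tested. Of 6 adipocyte markers, Adipoq, Lep, Plin1, Cfd and Retn had at most 4 counts in any library, while Adrb3 had 129 to 273 counts and was called lower in KO chow and WT CDAHFD than in WT chow.

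Without TMM, scaled by library size only, the median of all genes moved to a log2 fold change of 0.51 for WT CDAHFD, 0.57 for KO CDAHFD and 0.40 for KO chow, and 88.6%, 89.9% and 86% of all calls were higher, in place of 51%, 51.4% and 56.4%. The fold changes below are relative to the TMM scale. On the library size scale the calls of the 10 genes were not one-sided. For WT CDAHFD, Dgat2 was called lower and Mogat1 and Pnpla2 higher, though Mogat1 passed the filter only through that group. For KO CDAHFD, Gpam, Dgat2 and Mgll were called lower and Pnpla2 and Pnpla3 higher. For KO chow, Dgat2 was called lower and Pnpla3 higher. All other calls of the TMM fit were lost on that scale, and the Dgat1 values changed sign.

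In RPKM, the order of levels in WT chow was led by Dgat2 (253 ± 49.3, SD, n = 4) and Agpat2 (117 ± 28.8). Gpam (45.6 ± 7.91) and Mgll (41.1 ± 12.4) followed and did not differ beyond their spread, nor did Lpin2 (27.8 ± 11.6) and Pnpla2 (25.0 ± 5.58). Lpin1 (11.7 ± 14.1) and Dgat1 (8.72 ± 1.05) came next. Pnpla3 (0.191 ± 0.156) and Mogat1 (0.0880 ± 0.0467) were near the limit of detection, with 2 to 15 and 1 to 6 counts per library.

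Gpam (ENSMUSG00000024978, chr19:55067268-55127238 of GRCm38, minus strand) encodes the mitochondrial glycerol-phosphate acyltransferase of the first step. It measured 260.3, 264, 372 and 319 CPM in WT chow, 154, 173 and 166 in WT CDAHFD, 182 and 242 in KO chow, and 162, 142 and 161 in KO CDAHFD. WT chow did not overlap with any other group, and KO chow lay between WT chow and both CDAHFD groups without overlapping them. Its log2 fold change against WT chow was -0.89 ± 0.15 (SE) for WT CDAHFD (edgeR adjusted p = 0.000245) and -0.97 ± 0.15 for KO CDAHFD (edgeR adjusted p = 0.000118). For KO chow it was -0.52 ± 0.16 (edgeR adjusted p = 0.0243), a call that was lost without WT chow replicate 3 (-0.40, adjusted p = 0.0547), WT chow replicate 4 (-0.49, adjusted p = 0.0504) or KO chow replicate 1 (-0.31, adjusted p = 0.284). It was also lost with the replicate number as a block (-0.42, edgeR adjusted p = 0.09998), with only the 2 groups compared (-0.50, adjusted p = 0.0844) and with library size scaling (-0.11, adjusted p = 0.594). Library size scaling also ended the WT CDAHFD call (-0.33, edgeR adjusted p = 0.0669) and left KO CDAHFD at -0.35 (adjusted p = 0.0472). The step from KO chow to KO CDAHFD was -0.45 ± 0.17 and did not pass the adjustment (edgeR adjusted p = 0.135). It was called in 1 of 21 alternatives, with the clock gene score described below as covariate (-0.52, edgeR adjusted p = 0.0281).

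Agpat2 (ENSMUSG00000026922, chr2:26593057-26604417, minus strand) encodes the acyltransferase that makes phosphatidic acid. It measured 260.2, 320.2, 244 and 171 CPM in WT chow, 147, 138 and 154 in WT CDAHFD, 157 and 139 in KO chow, and 163, 162 and 83.3 in KO CDAHFD. The lowest WT chow library stood just above the highest library of the other groups, and KO CDAHFD replicate 3 stood well below the rest. Against WT chow, the log2 fold change of WT CDAHFD was -0.77 ± 0.23 (edgeR adjusted p = 0.0149), that of KO CDAHFD -0.87 ± 0.23 (adjusted p = 0.00718) and that of KO chow -0.75 ± 0.27 (adjusted p = 0.0414). The KO chow call was lost in 8 of 12 fits that left out a library: any WT chow library but replicate 4, any WT CDAHFD library or either KO chow library, with adjusted p from 0.0541 to 0.191. The WT CDAHFD call was lost without WT CDAHFD replicate 2 (-0.72, edgeR adjusted p = 0.0551). With library size scaling all 3 calls were lost, with WT CDAHFD at -0.22, KO CDAHFD at -0.28 and KO chow at -0.35 (edgeR adjusted p = 0.4315, 0.295 and 0.286). The gene shares 64 exonic bases with Egfl7 on the other strand, whose counts were 11.97% of those of Agpat2, and these unstranded libraries cannot separate reads there.

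Among 11 other genes of backbone supply and acylation (Gpd1, Gk, Gpat2, Gpat3, Gpat4, Agpat1, Agpat3, Agpat4, Agpat5, Lpin3 and Mogat2), WT CDAHFD had 6 called higher and 2 lower, KO CDAHFD had 6 higher and 3 lower, and KO chow had 4 higher and 3 lower. These 8, 9 and 7 of 11 stand beside 51.1%, 52.4% and 39% of all genes tested. Gpat3, an acyltransferase of the endoplasmic reticulum that catalyses the same step as Gpam, measured 1.82, 1.73, 1.97 and 1.38 CPM in WT chow and between 15.1 and 30.1 CPM in the other 8 libraries. WT CDAHFD was at a log2 fold change of 3.61 ± 0.21, KO CDAHFD at 3.60 ± 0.21 and KO chow at 3.96 ± 0.22, with edgeR adjusted p of 5.07e-08, 5.22e-08 and 1.05e-07. Of the summed RPKM of Gpam, Gpat2, Gpat3 and Gpat4, Gpat3 made up 0.627% ± 0.144 (SD, n = 4) in WT chow, 12.3% ± 2.02 (n = 3) in WT CDAHFD, 12.3% ± 3.09 (n = 2) in KO chow and 12.96% ± 3.46 (n = 3) in KO CDAHFD. Gpam held 56.7% ± 1.84 of this sum in WT chow and 49.9% to 50.1% on average in the other groups.

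Gpd1, the dehydrogenase that forms glycerol 3-phosphate, fell in all 3 comparisons, with WT CDAHFD at a log2 fold change of -1.39 ± 0.22, KO CDAHFD at -1.65 ± 0.22 and KO chow at -1.24 ± 0.25 (edgeR adjusted p of 0.000188, 4.62e-05 and 0.00193). The 4 WT chow libraries held 361 to 678 CPM and the other 8 held 126 to 254 CPM.

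Lpin1 (ENSMUSG00000020593, chr12:16535669-16610966, minus strand) and Lpin2 (ENSMUSG00000024052, chr17:71182560-71249817, plus strand) encode the phosphatidate phosphatases lipin 1 and lipin 2, and lipin 1 is also known as a transcriptional coactivator in the liver. Lpin1 measured 24.3, 35.1, 77.8 and 315 CPM in WT chow, 89.6, 37.4 and 27.8 in WT CDAHFD, 26.0 and 46.3 in KO chow, and 24.3, 19.7 and 36.0 in KO CDAHFD. WT chow replicate 4 stood far above the other libraries of its group, and WT chow overlapped with every other group. Lpin2 measured 262, 197, 379.5 and 520.1 CPM in WT chow, 348, 326 and 182 in WT CDAHFD, 232 and 271 in KO chow, and 128, 119 and 220.1 in KO CDAHFD. WT chow overlapped with every group here too, and KO CDAHFD held the lowest values.

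In the comparisons with WT chow, Lpin1 and Lpin2 were called in KO CDAHFD and not in the other groups. Lpin1 had a log2 fold change of -2.08 ± 0.76 there (edgeR adjusted p = 0.0365), and the call was lost without WT chow replicate 4 (-0.74, adjusted p = 0.232) and without KO CDAHFD replicate 1 (-2.01, adjusted p = 0.0984), replicate 2 (-1.90, adjusted p = 0.112) or replicate 3 (-2.35, adjusted p = 0.0587). Lpin2 had a log2 fold change of -1.13 ± 0.33 (edgeR adjusted p = 0.0126), lost without KO CDAHFD replicate 1 (-1.0, adjusted p = 0.0553) or replicate 2 (-0.96, adjusted p = 0.0577). With library size scaling both calls were lost (-1.39 and -0.48, edgeR adjusted p = 0.113 and 0.216), and that of Lpin1 also with only the 2 groups compared (-2.02, adjusted p = 0.0633) or with the replicate block (-0.74, adjusted p = 0.238). In KO chow and WT CDAHFD the changes were -1.64 ± 0.88 and -1.13 ± 0.73 for Lpin1 and -0.43 ± 0.37 and -0.25 ± 0.33 for Lpin2, with edgeR adjusted p between 0.159 and 0.543. Without a filter on low counts Lpin1 was called in KO chow (-1.58, edgeR adjusted p = 0.0248). Without WT chow replicate 4 the WT CDAHFD values turned to 0.19 for Lpin1 and 0.045 for Lpin2. In RPKM, Lpin2 exceeded Lpin1 by 4.53 ± 2.98 times in WT chow (SD, n = 4) and by 4.58 to 5.84 times on average in the other groups.

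Libraries also differed within groups in the expression of clock genes. A clock score was computed per library from the mean standardised log2 CPM of 8 clock genes that peak towards evening (Dbp, Tef, Hlf, Per2, Per3, Nr1d1, Nr1d2 and Ciart) less that of 4 that peak towards morning (Arntl, Npas2, Clock and Cry1). It was -1.84, -1.47, 1.97 and 2.16 in WT chow, -0.43, -1.01 and -0.87 in WT CDAHFD, -1.64 and 1.05 in KO chow, and -0.53, -0.45 and 3.05 in KO CDAHFD. Thus WT chow replicates 3 and 4, KO chow replicate 2 and KO CDAHFD replicate 3 stood above 0, and no WT CDAHFD library did. The time of day of sampling is not given in the sources used here.

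Within WT chow, the 2 libraries above 0 had a mean of 196 CPM of Lpin1 against 29.7 CPM in the 2 below, a 6.60-fold difference, and of Lpin2 450 CPM against 229.7 CPM, a 1.96-fold difference. Within KO CDAHFD the library above 0 had 1.64 times the Lpin1 and 1.78 times the Lpin2 level of the others. In WT CDAHFD, where no library was above 0, Lpin1 ran from 27.8 to 89.6 CPM and Lpin2 from 182 to 348 CPM. Replicate 1, with the highest clock score of that group (-0.43), held the highest level of both genes. With the 4 libraries above 0 left out, a setting added after seeing the data, Lpin1 in KO CDAHFD was at a log2 fold change of -0.44 (edgeR adjusted p = 0.48) and Lpin2 at -0.90 (adjusted p = 0.0264). In the same setting the WT CDAHFD values turned to 0.79 for Lpin1 and 0.31 for Lpin2, with adjusted p of 0.155 and 0.329. Over 21 alternative settings the KO CDAHFD value was called in 13 for Lpin1 (edgeR or DESeq2 adjusted p from 0.000611 to 0.48) and in 18 for Lpin2 (0.000243 to 0.216). With the clock score as covariate, 8 of the 10 genes were called in KO CDAHFD, Lpin1 and Lpin2 among them, beside 9885 of all 17358 genes. Beyond these fits, the part of the clock difference in the lipin results was not tested.

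**Figure D2:**
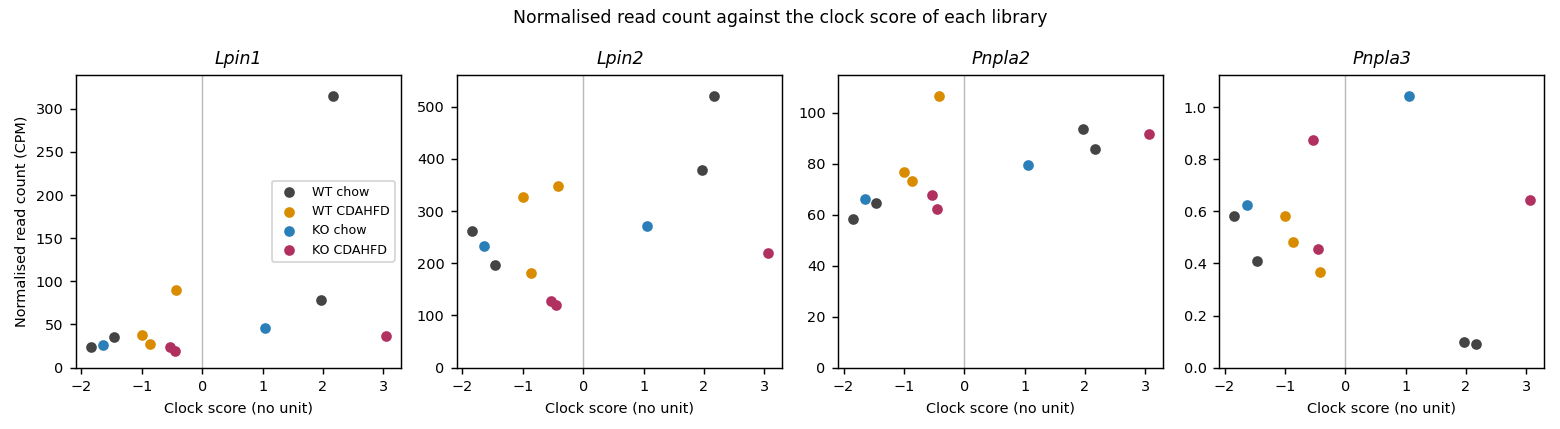
Normalised read count (CPM, vertical axis from 0) of Lpin1, Lpin2, Pnpla2 and Pnpla3 against the clock score of each library (horizontal axis, no unit; grey line at 0). Points are the 12 libraries, coloured by group, and 4 libraries lie to the right of 0. In WT chow the 2 libraries to the right of 0 hold the highest Lpin1 and Lpin2 levels and the lowest Pnpla3 levels. The KO chow library to the right of 0 holds the highest Pnpla3 level of the 12.

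Promoter windows from RefSeq (GRCm38.p6), 250 bases before the start of transcription, were at hand for 8 of the 10 genes (12 windows), not for Dgat1 and Dgat2. The E-box CACGTG, the element that clock proteins and other basic helix-loop-helix factors bind, was found in 2 of the 12 windows, those of Mgll and Lpin2, against 6.02% of all 32851 windows. The nuclear receptor hexamer AGGTCA was found in 2 windows, of Lpin1 and Gpam, against 14% of all windows. Neither the direct repeat of this hexamer with a spacer of 1 base, which PPARα binds with its partner RXR, nor the sterol regulatory element TCACCCCAC was found (0.0335% and 0.496% of all windows). Motifs were searched on both strands, CACGTG reads the same on both, and a hexamer inside the direct repeat would count for both motifs. The 100 bases before the start are printed for the 3 genes with a match there, on the strand of the gene, because they show where the match lies beside the Lpin1, Lpin2 and Mgll values. Capitals mark the match, whose first base is 44 bases before the start in Mgll (chr6:88724312-88724411, plus strand), 9 bases before in Lpin2 (chr17:71183432-71183531, plus strand, in an intron of a longer annotated transcript) and 74 bases before in Lpin1 (chr12:16610967-16611066, minus strand).
Mgll: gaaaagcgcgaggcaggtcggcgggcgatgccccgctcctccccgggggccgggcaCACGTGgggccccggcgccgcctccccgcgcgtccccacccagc
Lpin2: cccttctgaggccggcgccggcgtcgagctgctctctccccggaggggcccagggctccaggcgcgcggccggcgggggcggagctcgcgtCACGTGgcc
Lpin1: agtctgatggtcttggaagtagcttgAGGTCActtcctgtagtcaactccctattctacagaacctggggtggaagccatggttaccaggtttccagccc

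Dgat2 (ENSMUSG00000030747, chr7:99153658-99182719, minus strand) and Dgat1 (ENSMUSG00000022555, chr15:76502015-76511953, minus strand) encode the unrelated enzymes of the last step. Dgat2 measured 602, 732, 819 and 964 CPM in WT chow, 334, 319 and 352 in WT CDAHFD, 359 and 369 in KO chow, and 378, 371 and 372 in KO CDAHFD. The lowest WT chow library stood far above the other 8, which lay within a narrow range. WT CDAHFD was at a log2 fold change of -1.22 ± 0.14 against WT chow (edgeR adjusted p = 1.38e-05), KO CDAHFD at -1.06 ± 0.14 (adjusted p = 3.89e-05) and KO chow at -1.10 ± 0.16 (adjusted p = 0.000178). It was called in each of the 3 comparisons in all 12 fits that left out a library.

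Dgat2 was the only one of the 10 genes whose diet effect differed between genotypes in edgeR's test of the interaction, beside 23.1% of all genes tested (8.63% with a higher and 14.5% with a lower value in KO mice). The diet effect was a log2 fold change of -1.22 ± 0.14 in WT mice and 0.04 ± 0.16 in KO mice (KO CDAHFD against KO chow, adjusted p = 0.922), a difference of 1.26 ± 0.22 (adjusted p = 0.0011). Put the other way, the genotype effect was -1.10 on chow and 0.16 ± 0.15 on CDAHFD.

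Dgat1 was measured at a lower level and moved less. It was at 24.4, 23.8, 30.7 and 27.7 CPM in WT chow, 21.2, 17.9 and 20.3 in WT CDAHFD, 23.0 and 19.9 in KO chow, and 20.9, 22.3 and 17.8 in KO CDAHFD. Its lowest WT chow library stood just above the highest KO chow library. The log2 fold change was -0.43 ± 0.12 in WT CDAHFD (edgeR adjusted p = 0.0121), lost without WT CDAHFD replicate 2 (-0.36, adjusted p = 0.0631). It was -0.39 ± 0.13 in KO CDAHFD (edgeR adjusted p = 0.0193), lost without WT chow replicate 3 (-0.29, adjusted p = 0.0613) or KO CDAHFD replicate 3 (-0.30, adjusted p = 0.0864), and also without a filter on low counts (-0.33, adjusted p = 0.0747), with only the 2 groups compared (-0.34, adjusted p = 0.0573) or with the replicate block (-0.37, adjusted p = 0.0621). In KO chow it was -0.31 ± 0.14 and was not called (edgeR adjusted p = 0.102). With the clock score as covariate the WT CDAHFD and KO CDAHFD calls were both kept. With library size scaling the values turned to 0.13 for WT CDAHFD, 0.22 for KO CDAHFD and 0.095 for KO chow, and without the libraries with a clock score above 0 the 2 calls were lost (-0.28, adjusted p = 0.0529, and -0.16, adjusted p = 0.306). Over 21 alternatives the adjusted p ran from 0.00932 to 0.326 in WT CDAHFD and from 0.0161 to 0.306 in KO CDAHFD.

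The ratio of Dgat2 to Dgat1, which does not depend on the scaling of a library, was 29.0 ± 4.49 in RPKM in WT chow (SD, n = 4, lowest 24.5), 16.8 ± 1.07 in WT CDAHFD (n = 3), 16.9 ± 2.08 in KO chow (n = 2) and 18.4 ± 2.13 in KO CDAHFD (n = 3, highest 20.7). WT chow did not overlap with the other groups in this ratio either.

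**Figure D3:**
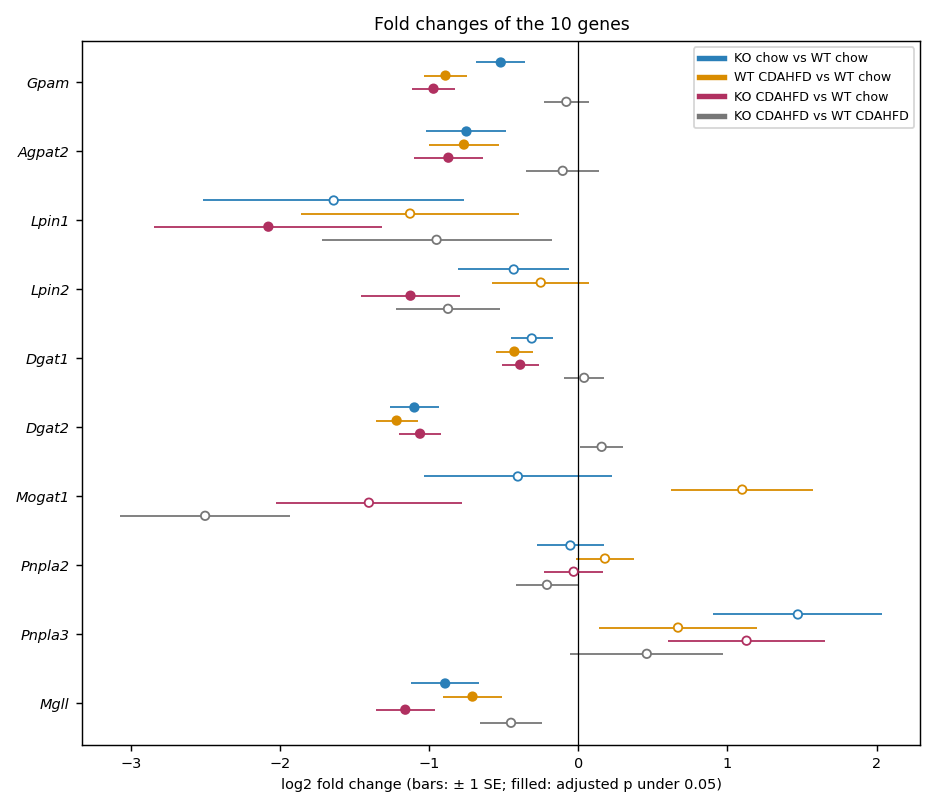
Log2 fold change (horizontal axis) ± 1 SE of the 10 genes from edgeR, for each of the 3 other groups against WT chow and for KO CDAHFD against WT CDAHFD. Filled points are past an adjusted p of 0.05. On this TMM scale the filled points lie to the left of 0 for Gpam, Agpat2, Dgat2 and Mgll in all 3 comparisons with WT chow, and no point of the comparison within CDAHFD is filled.

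Mogat1 (ENSMUSG00000012187, chr1:78510991-78538173, plus strand) encodes a monoacylglycerol acyltransferase that is low in normal mouse liver and known to rise in some fatty livers. It had 1, 4, 6 and 4 counts in the WT chow libraries, 14, 10 and 19 in WT CDAHFD, 4 and 4 in KO chow, and 2, 2 and 2 in KO CDAHFD. The WT CDAHFD libraries held the highest counts and overlapped slightly with WT chow in CPM (0.194 to 0.415 against 0.0388 to 0.2001). The KO CDAHFD libraries did not overlap with WT CDAHFD.

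Between these groups the pooled Mogat1 counts were 43 in WT CDAHFD and 6 in KO CDAHFD. Because Mogat1 passed the filter only through WT CDAHFD, the group where it was high, its comparisons with that group are given as a description. In the fit across all genes the log2 fold change of KO CDAHFD against WT CDAHFD was -2.50 ± 0.57 and did not pass the adjustment (edgeR adjusted p = 0.119), and 1 of 18 alternatives called it (newer edgeR defaults, adjusted p = 0.0408, range up to 0.345). Against WT chow, WT CDAHFD was at 1.10 ± 0.48 (edgeR adjusted p = 0.0710), KO CDAHFD at -1.40 ± 0.62 (adjusted p = 0.0760) and KO chow at -0.41 ± 0.63 (adjusted p = 0.643). The WT CDAHFD value was called in 3 of 18 alternatives, at 1.65 with library size scaling, 1.09 with newer edgeR defaults and 1.30 with the clock score as covariate (edgeR adjusted p = 0.00796, 0.0389 and 0.0464, range up to 0.1925). Without WT chow replicate 1 the KO CDAHFD value was called (-1.66, edgeR adjusted p = 0.0286). The gene overlaps BC035947 on the other strand, whose counts were 11.1% of its own.

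The range of group means on the log2 CPM scale was 1.73 for Mogat1 and 1.60 for Pnpla3, both with few counts, and 0.217 to 1.39 for the other 8 genes. Among 8804 genes whose mean reached 10 CPM, those most alike to Mogat1 over the 12 libraries were Zcchc2 (Pearson r = 0.909), Zfp655 (0.871) and Rnf19a (0.845) in log2 CPM. These values are a description, since all points share the same libraries and with 1 to 19 Mogat1 counts per library they carry much counting noise. Mogat2, the other monoacylglycerol acyltransferase of the list, measured 0.155, 0.189, 0.0667 and 0.183 CPM in WT chow, 0.717, 1.18 and 0.874 in WT CDAHFD, 0.272 and 0.558 in KO chow, and 1.36, 1.84 and 2.21 in KO CDAHFD. These are few counts per library, 2 to 6 in WT chow, 35 to 61 in WT CDAHFD, 10 and 23 in KO chow, and 56 to 93 in KO CDAHFD. Mogat2 rose in both CDAHFD groups, by a log2 fold change of 2.63 ± 0.40 in WT mice (edgeR adjusted p = 0.00015) and 3.59 ± 0.39 in KO mice (adjusted p = 8.38e-06, both against WT chow). It rose by 1.49 ± 0.48 in KO chow (edgeR adjusted p = 0.0256), a call lost without WT chow replicate 3 (1.24, adjusted p = 0.0636) or KO chow replicate 2 (0.88, adjusted p = 0.302), with only the 2 groups compared (1.49, adjusted p = 0.0790) or without the libraries with a clock score above 0 (0.64, adjusted p = 0.493). Within KO mice the diet effect on Mogat2 was 2.10 ± 0.42 (edgeR adjusted p = 0.0147), lost without KO chow replicate 1 (1.71, adjusted p = 0.140).

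Pnpla2 (ENSMUSG00000025509, chr7:141455198-141460743, plus strand), the gene of adipose triglyceride lipase, differed least among the 10. It measured 58.2, 64.7, 93.6 and 85.9 CPM in WT chow, 107, 76.9 and 73.3 in WT CDAHFD, 66.2 and 79.5 in KO chow, and 67.8, 62.2 and 91.9 in KO CDAHFD. All groups overlapped. Against WT chow, WT CDAHFD was at a log2 fold change of 0.18 ± 0.20, KO CDAHFD at -0.03 ± 0.20 and KO chow at -0.05 ± 0.22, with edgeR adjusted p from 0.469 to 0.909, and the signs turned when single libraries were left out. Within WT chow the 2 libraries with a clock score above 0 had 1.46 times the Pnpla2 level of the others. Without the libraries above 0 the WT CDAHFD value was called, at 0.48 (edgeR adjusted p = 0.0347), as in 3 of 21 alternatives (adjusted p from 0.00543 to 0.981). Scaled by library size alone, Pnpla2 was called higher in both CDAHFD groups, at 0.74 in WT mice and 0.60 in KO mice (edgeR adjusted p = 0.00543 and 0.0170).

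The 3 partners of the Pnpla2 product were called in WT CDAHFD, beside 51.1% of all genes tested. G0s2, its inhibitor, measured 89.3, 95.8, 112 and 58.5 CPM in WT chow, 33.7, 39.3 and 29.2 in WT CDAHFD, 88.5 and 60.8 in KO chow, and 110.2, 117 and 52.9 in KO CDAHFD. Its WT CDAHFD libraries lay below all the others. G0s2 fell in WT CDAHFD (log2 fold change -1.38 ± 0.28, edgeR adjusted p = 0.00117) while KO CDAHFD was at 0.07 ± 0.27 and KO chow at -0.25 ± 0.31 (adjusted p = 0.844 and 0.550). On the library size scale the KO CDAHFD value was called higher (0.66, edgeR adjusted p = 0.0473). The difference between the genotypes on CDAHFD was 1.45 ± 0.29 and missed the threshold (edgeR adjusted p = 0.0628), and it was called without WT chow replicate 4 (1.46, adjusted p = 0.0376) or KO CDAHFD replicate 3 (1.74, adjusted p = 0.0104) and by DESeq2's Wald test (1.45, adjusted p = 0.00022). It was called in 8 of 21 alternatives (adjusted p from 3.1e-05 to 0.317). The test of the interaction gave 1.71 ± 0.43 (edgeR adjusted p = 0.0119), lost without KO chow replicate 2 (1.45, adjusted p = 0.0656).

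The ratio of Pnpla2 to G0s2 in RPKM was 0.262 ± 0.1104 in WT chow (SD, n = 4), 0.734 ± 0.174 in WT CDAHFD (n = 3), 0.296 ± 0.114 in KO chow (n = 2) and 0.277 ± 0.194 in KO CDAHFD (n = 3). It ran from 0.565 to 0.912 in WT CDAHFD and reached at most 0.501 in the other libraries, so that WT CDAHFD did not overlap with the other groups.

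Hilpda, another inhibitor of this lipase, measured 3.22, 2.52, 1.80 and 2.48 CPM in WT chow, 8.91, 6.14 and 4.98 in WT CDAHFD, 5.68 and 4.07 in KO chow, and 5.62, 5.96 and 3.59 in KO CDAHFD. Every WT chow library was below the other 8. WT CDAHFD was at a log2 fold change of 1.42 ± 0.26 (edgeR adjusted p = 0.00062), KO CDAHFD at 1.02 ± 0.26 (adjusted p = 0.00583) and KO chow at 0.96 ± 0.29 (adjusted p = 0.0195). The KO chow call was lost without KO chow replicate 1 (0.72, edgeR adjusted p = 0.182) and without the libraries with a clock score above 0 (0.99, adjusted p = 0.0510). Abhd5, the activator, measured 57.9, 30.0, 33.4 and 40.9 CPM in WT chow, 29.0, 27.0 and 26.1 in WT CDAHFD, 31.3 and 31.7 in KO chow, and 25.6, 20.9 and 23.8 in KO CDAHFD. It fell by 0.79 on the log2 scale in KO CDAHFD (SE 0.19, edgeR adjusted p = 0.00325) and by 0.57 in WT CDAHFD (SE 0.18, adjusted p = 0.0210). The WT CDAHFD call was lost without WT CDAHFD replicate 2 (-0.55, edgeR adjusted p = 0.0633) or replicate 3 (-0.53, adjusted p = 0.0687) or with only the 2 groups compared (-0.52, adjusted p = 0.0647). Both Abhd5 calls were lost when libraries were scaled by size alone, with KO CDAHFD at -0.18 and WT CDAHFD at -0.017 (edgeR adjusted p = 0.447 and 0.9485). In KO chow the value was -0.36 ± 0.21 (edgeR adjusted p = 0.193).

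Pnpla3 (ENSMUSG00000041653, chr15:84167837-84187236, plus strand) encodes a lipid droplet protein of the same family that is known to follow feeding and insulin in the liver. It had 15, 13, 3 and 2 counts in WT chow, 18, 30 and 22 in WT CDAHFD, 23 and 43 in KO chow, and 36, 17 and 27 in KO CDAHFD, or 0.0917 to 0.582 CPM in WT chow and 0.369 to 1.04 CPM elsewhere. WT chow replicates 3 and 4, which had clock scores above 0, stood well below the other 10 libraries. KO chow replicate 2 and KO CDAHFD replicate 3 also had scores above 0 and held 1.04 CPM, the highest level, and 0.642 CPM. KO chow did not overlap with WT chow. KO chow was at a log2 fold change of 1.47 ± 0.57 (edgeR adjusted p = 0.0558), WT CDAHFD at 0.67 ± 0.53 (adjusted p = 0.315) and KO CDAHFD at 1.13 ± 0.52 (adjusted p = 0.0883), and none was called. Without WT chow replicate 1 the KO chow and KO CDAHFD values were called (1.99 and 1.66, edgeR adjusted p = 0.0154 and 0.0216), and DESeq2's Wald test called KO chow (1.495, adjusted p = 0.0417). Both values were also called with the clock score as covariate, at 1.56 in KO chow and 1.35 in KO CDAHFD (edgeR adjusted p = 0.0345 and 0.0433). Without the libraries with a clock score above 0 KO chow was at 0.35, WT CDAHFD at -0.040 and KO CDAHFD at 0.44, with adjusted p from 0.496 to 0.951. Over 21 alternatives Pnpla3 was called in 6 in KO chow (adjusted p from 0.0154 to 0.691) and in 3 in KO CDAHFD (0.0154 to 0.496).

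Mgll (ENSMUSG00000033174, chr6:88724412-88828360, plus strand) encodes monoacylglycerol lipase, which also breaks down the endocannabinoid 2-arachidonoylglycerol. It measured 178, 154, 298 and 204 CPM in WT chow, 119, 128 and 136 in WT CDAHFD, 109 and 116 in KO chow, and 90.0, 78.7 and 111 in KO CDAHFD. The WT chow libraries lay above all others, and KO CDAHFD lay below WT CDAHFD. The log2 fold change of WT CDAHFD was -0.71 ± 0.19 (edgeR adjusted p = 0.00868), that of KO CDAHFD -1.16 ± 0.20 (adjusted p = 0.000322) and that of KO chow -0.89 ± 0.23 (adjusted p = 0.0075). The KO chow call was lost without KO chow replicate 1 (-0.83, edgeR adjusted p = 0.0736). The KO chow and WT CDAHFD calls were lost with library size scaling (-0.49 and -0.15, edgeR adjusted p = 0.104 and 0.552), and KO CDAHFD was at -0.54 (adjusted p = 0.0354). The difference between the genotypes on CDAHFD, -0.45 ± 0.21, was not called (edgeR adjusted p = 0.560).

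Abhd6, the other monoacylglycerol hydrolase of the list, was the single gene of the 21 other listed genes that was called between the genotypes on CDAHFD, beside 0.357% of all genes tested. It measured 40.9, 38.4, 45.8 and 32.7 CPM in WT chow, 21.9, 19.5 and 21.7 in WT CDAHFD, 20.5 and 16.5 in KO chow, and 11.5, 12.2 and 10.9 in KO CDAHFD. The KO CDAHFD libraries lay below all other libraries, and the WT chow libraries above them. KO CDAHFD was at a log2 fold change of -0.86 ± 0.13 against WT CDAHFD (edgeR adjusted p = 0.0136), -0.68 ± 0.15 against KO chow (adjusted p = 0.0210) and -1.77 ± 0.13 against WT chow (adjusted p = 3.1e-07). The first of these calls was lost in 5 of 12 fits that left out a library (WT CDAHFD replicate 1 or 3 or any KO CDAHFD library, -0.91 to -0.82, edgeR adjusted p from 0.0584 to 0.0893). The call against KO chow was lost without KO chow replicate 1 (-0.50, edgeR adjusted p = 0.213), KO CDAHFD replicate 1 (-0.67, adjusted p = 0.0648) or KO CDAHFD replicate 3 (-0.64, adjusted p = 0.0642), with library size scaling (-0.47, adjusted p = 0.0913) and with only the 2 groups compared (-0.67, adjusted p = 0.0635). Against WT chow, KO chow was at -1.10 ± 0.15 and WT CDAHFD at -0.91 ± 0.13 (edgeR adjusted p = 8.63e-05 and 6.61e-05).

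**Figure D4:**
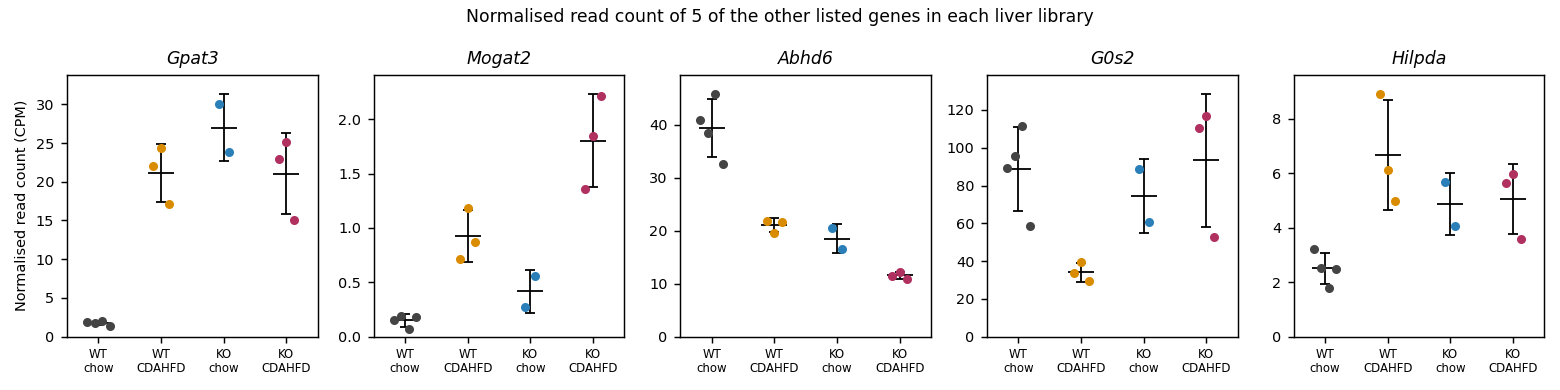
Normalised read count (CPM, vertical axis from 0, a separate scale per gene) of Gpat3, Mogat2, Abhd6, G0s2 and Hilpda in each library by group, with the mean ± SD. The 4 WT chow libraries lie below the other 8 for Gpat3, Mogat2 and Hilpda and above them for Abhd6, and G0s2 is lowest in the 3 WT CDAHFD libraries.

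All 7 other lipolysis genes of the list (Lipe, Abhd6, Ces1d, Aadac, Lipa, Lipc and Lpl) were called in each of the 3 comparisons with WT chow, 2 higher and 5 lower in each, beside 51.1%, 52.4% and 39% of all genes called for WT CDAHFD, KO CDAHFD and KO chow (25%, 25.4% and 17% lower). Lpl, which frees fatty acids from circulating lipoproteins and is low in healthy adult liver, measured 14.6 to 38.9 CPM in WT chow, 446 to 560.4 CPM in WT CDAHFD, 211 and 286 CPM in KO chow, and 428 to 481 CPM in KO CDAHFD. Against WT chow, WT CDAHFD was at 4.41 ± 0.28, KO CDAHFD at 4.23 ± 0.28 and KO chow at 3.34 ± 0.29 on the log2 scale (edgeR adjusted p of 1.18e-07, 1.35e-07 and 2.61e-06). Macrophages are known to express Lpl, and the macrophage markers rose in the same 3 groups. Whether its rise came from these cells was not tested.

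Of the genes that fell, Ces1d, a carboxylesterase of the hepatocyte endoplasmic reticulum that hydrolyses stored triglyceride, had log2 fold changes of -2.03 ± 0.23 for WT CDAHFD, -1.88 ± 0.23 for KO CDAHFD and -1.17 ± 0.26 for KO chow (edgeR adjusted p of 1.12e-05, 1.89e-05 and 0.00312). Ces1d has close paralogs, and how reads shared with them were counted is not given in the sources used here. Aadac, an arylacetamide deacetylase linked to the same store, was at -1.50 ± 0.14, -1.44 ± 0.14 and -0.97 ± 0.16 in the same order (edgeR adjusted p of 1.91e-06, 2.45e-06 and 0.000329). Lipc, hepatic lipase, was at -1.28 ± 0.18, -1.42 ± 0.18 and -1.51 ± 0.21 (edgeR adjusted p of 6.55e-05, 2.62e-05 and 0.000108). The hepatocyte markers were lower in the same groups, with all 6 called lower in both CDAHFD groups and 5 of 6 in KO chow.

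**Figure D5:**
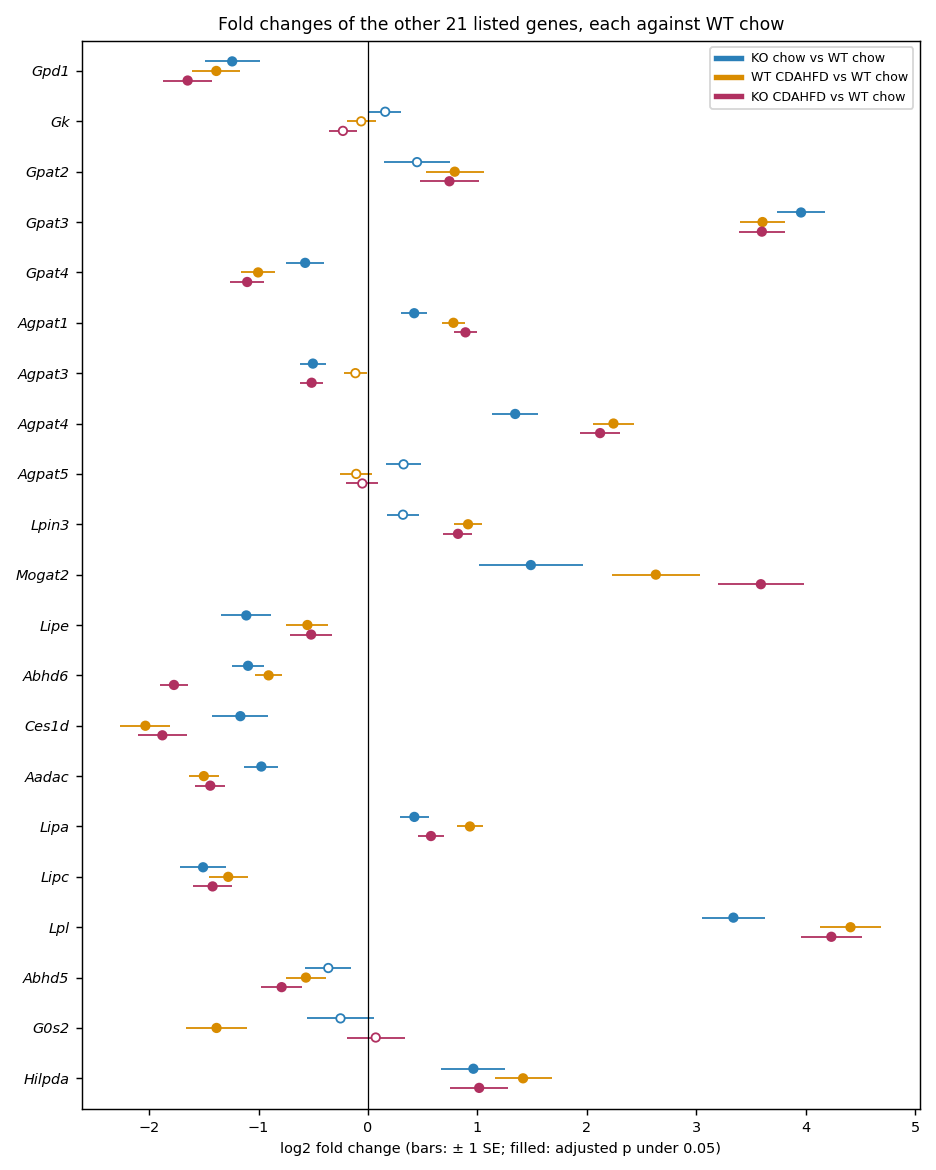
Log2 fold change (horizontal axis) ± 1 SE of the 21 other listed genes from edgeR, for each of the 3 other groups against WT chow. Filled points are past an adjusted p of 0.05. Gpat3 and Lpl lie farthest to the right and Ces1d farthest to the left in both CDAHFD groups.

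Over the 21 other listed genes, WT CDAHFD and KO CDAHFD each had 9 called higher and 9 lower than WT chow, and KO chow had 7 higher and 8 lower. Of all genes tested, 26.1% were higher and 25% lower for WT CDAHFD, 26.9% and 25.4% for KO CDAHFD, and 22% and 17% for KO chow. The median log2 fold change of the list was -0.11 for WT CDAHFD, -0.05 for KO CDAHFD and 0.16 for KO chow.

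Comparisons that leave out WT chow showed few calls. Between the genotypes on CDAHFD none of the 10 genes was called by edgeR, beside 0.357% of all genes tested (0.0864% higher and 0.271% lower in KO mice), 3 had an unadjusted p under 0.05 (Lpin2, Mogat1 and Mgll), and DESeq2 called none. Lpin2 was at -0.87 ± 0.35 in this comparison (edgeR adjusted p = 0.488), with KO CDAHFD replicate 3, the library with the highest clock score, above the other KO CDAHFD libraries. With the clock score as a covariate the Lpin2 value was -1.26 and was called (edgeR adjusted p = 0.0283), the only 1 of 21 alternatives with a call (adjusted p up to 0.94). Between the diets in KO mice none of the 10 was called by edgeR or DESeq2, beside 6.19% of all genes (3.76% higher and 2.44% lower on CDAHFD), and 1 had an unadjusted p under 0.05 (Gpam). Between KO chow and WT CDAHFD none was called by either tool, beside 6.12% of all genes (2.71% higher and 3.42% lower in KO chow). Here 2 of the 10 had an unadjusted p under 0.05 (Gpam and Mogat1). Of all 17358 genes tested, 1523, 4002 and 4168 had an unadjusted p under 0.05 in these 3 comparisons, in the order given. Of the other listed genes, 3 were called between the diets in KO mice (Mogat2 and Agpat4 higher, Abhd6 lower), 2 between KO chow and WT CDAHFD (Agpat4 and Lpin3, both lower in KO chow), and 10 in the interaction. Agpat4 and Lpin3 are named here after their values were seen.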

How the data were processed

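Total RNA of mouse liver was poly-A selected and sequenced without strand information on a NovaSeq instrument. According to the study's methods and processing notes, the authors checked reads with FastQC 0.11.5 and aligned them to GRCm38 with STAR 2.7.3a. They deposited raw read counts per Ensembl gene, not normalised. The counting program and annotation are not given in the sources used here. Symbols and positions came from GENCODE M21, which held 94.08% of the gene identifiers and 99.69% of the counts. Promoter windows came from RefSeq.

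From these counts, edgeR 4.0.16 (R 4.3.3) kept 17358 genes (filterByExpr with the groups), scaled libraries by TMM and fitted 4 group means over all 12 libraries with its quasi-likelihood test, and p-values were adjusted by Benjamini-Hochberg across these genes. SE is the size of the log2 fold change divided by the root of the F statistic. Log2 CPM used a prior count of 2. DESeq2 1.42.0 was an alternative. Tables and figures used Python 3.11.15 with pandas 2.3.3, scipy 1.17.1 and matplotlib 3.10.9. The fit was tested on simulated counts. Groups and replicate numbers came from the labels, and each library was taken as a mouse, which the labels do not state, so p-values measure the spread between these libraries. The 10 genes, the 21 other genes, the marker lists and the clock lists were chosen with earlier results of these data known. Of the 21, the 3 partners of Pnpla2 and, in each comparison with WT chow, the 3 called genes with the largest rise and the 3 with the largest fall were named. Total counts per library ran from 29906785 to 43551003. A library's expression of 12 clock genes gave its clock score. Alternatives were other scalings, no filter, DESeq2, newer edgeR defaults, only the groups compared, the clock score or replicate number in the model, and each library left out.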

Additional observations from a re-analysis of the deposited data

Results flagged for a closer look

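In edgeR's test of the interaction, the diet effect differed between WT and KO mice for 1 of the 10 genes and for 10 of the 21 other listed genes, beside 23.1% of all genes tested. The 8 of these 11 named above are given here. Apart from Dgat2 and the Pnpla2 partners, they were named for their change against WT chow, whose libraries also enter the interaction, so their values are a description. Values are the diet effect in KO mice less that in WT mice, as log2 fold changes. Dgat2 was at 1.256 (SE 0.215, adjusted p = 0.0011), with CDAHFD lower than chow in WT mice and at 0.04 ± 0.16 against chow in KO mice. Of the same sign, 3 further genes were lower in WT CDAHFD than in WT chow: Ces1d at 1.32, Aadac at 1.034 and Lipc at 1.364 (edgeR adjusted p of 0.0138, 0.00314 and 0.003). Gpat3 was at -3.963 and Lpl at -3.514 (edgeR adjusted p of 3.1e-06 and 6.43e-05), with higher levels in WT CDAHFD than in WT chow. Among the partners of the Pnpla2 product, G0s2 was at 1.706 and Hilpda at -1.364 (edgeR adjusted p of 0.0119 and 0.0263). The Ces1d call was lost with library size scaling (0.985, edgeR adjusted p = 0.0676), and that of Hilpda without WT CDAHFD replicate 1 (-1.10, adjusted p = 0.0732). Some calls were also lost in fits that leave 1 KO chow library. These were Ces1d and G0s2 without KO chow replicate 2 (0.99 and 1.45) and Hilpda without KO chow replicate 1 (-1.12). Hilpda lost its call too without the libraries with a clock score above 0 (-1.20), which also leaves 1 KO chow library. All 8 values rest on 2 KO chow libraries.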

How the results depend on the processing

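The count of the 10 genes called depended on some settings. With library size scaling it was 3 for WT CDAHFD, 2 for KO chow and 2 for the interaction, in place of 5, 4 and 1. Of all 17358 genes, 10262, 8186 and 4944 were called on that scale, in place of 8863, 6763 and 4011. For WT CDAHFD library size scaling ended the calls of Gpam, Agpat2, Dgat1 and Mgll and added Mogat1 and Pnpla2, both higher. For KO chow it ended those of Gpam, Agpat2 and Mgll and added Pnpla3, higher. For KO CDAHFD it ended those of Agpat2, Lpin1, Lpin2 and Dgat1 and added Pnpla2 and Pnpla3, both higher. Mogat1 passed the filter only through WT CDAHFD, so its calls in comparisons with that group are a description. Newer edgeR defaults called 1 (Mogat1) between genotypes on CDAHFD in place of none, beside 103 of all 17358 genes. With the clock score as covariate the count of the 10 genes called was 3 in the interaction (Dgat2, Agpat2 and Lpin2). It was 1 between genotypes on CDAHFD (Lpin2) and 2 between diets in KO mice (Gpam and Lpin2). These stand beside 4529, 176 and 1561 of all genes, and the count was 1, none and none in the main fit. The fit without the libraries with a clock score above 0 leaves 1 KO chow library and is not counted here. Leaving out each library but those of KO chow in turn gave 2 to 4 calls in KO chow (2 without WT chow replicate 3), 3 to 5 in WT CDAHFD (3 without WT CDAHFD replicate 2), 5 to 9 in KO CDAHFD, 1 to 2 in the interaction (2 without KO CDAHFD replicate 3) and 0 to 0 in the other comparisons. Over all genes, KO chow had 6258 calls of 17169 without WT chow replicate 3, and WT CDAHFD had 7299 of 17121 without WT CDAHFD replicate 2. KO CDAHFD had 9023 of 17371 without WT chow replicate 1, where 9 of the 10 genes were called. Without KO CDAHFD replicate 1, 2 or 3, where 5 were called, it had 7919 of 17332, 8322 of 17298 and 8028 of 17183. The interaction had 4078 of 17183 without KO CDAHFD replicate 3. Fits without a KO chow library leave 1 there and are not counted, though without KO chow replicate 1 the Gpam, Agpat2 and Mgll calls were lost in KO chow.

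Signs turned only for small or uncalled log2 fold changes, except for the Dgat1 values in both CDAHFD groups, whose calls were lost, and the Pnpla2 value in KO CDAHFD, which became a call. With library size scaling, Dgat1 was at 0.13 for WT CDAHFD, 0.22 for KO CDAHFD and 0.095 for KO chow, Pnpla2 at 0.36 in KO chow and 0.60 in KO CDAHFD (called higher, adjusted p = 0.0170), Lpin2 at 0.33 in WT CDAHFD, and Abhd5 and G0s2 in KO chow at 0.032 and 0.15. With the clock score as covariate, Lpin2 was at 0.041 in WT CDAHFD, Pnpla2 at 0.039 in KO chow and Dgat2 at -0.023 between the diets in KO mice. Without the libraries with a clock score above 0, Lpin1 was at 0.79 and Lpin2 at 0.31 in WT CDAHFD, Pnpla3 at -0.040 there, and Lpin2 at 0.018, Mogat1 at 0.33 and Pnpla2 at 0.11 in KO chow, with Pnpla2 at 0.081 in KO CDAHFD. Pnpla2 in KO CDAHFD was also at 0.014 with DESeq2's size factors, 0.032 without a filter, 0.016 in DESeq2 and 0.027 with only the 2 groups compared. Leaving out libraries moved Pnpla2 between -0.0072 and 0.32 for WT CDAHFD, -0.21 and 0.12 for KO CDAHFD and -0.19 and 0.092 for KO chow, Lpin1 and Lpin2 in WT CDAHFD from -1.79 to 0.19 and from -0.42 to 0.045, and G0s2 in KO CDAHFD from -0.12 to 0.36. The causes were not tested.

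Same-numbered libraries of different groups did not deviate together (3 of 15 pairs above a correlation of 0.1, range -0.242 to 0.266), so the numbers were taken as names. With the replicate number as a block, the genes called were 5 for WT CDAHFD, 5 for KO CDAHFD and 3 for KO chow, beside 7797, 8044 and 5433 of all 17358 genes. In that setting Lpin1 turned to 0.30 and Lpin2 to 0.10 in WT CDAHFD, Mogat1 to 0.045 and Pnpla2 to 0.13 in KO chow, Pnpla2 to 0.039 and G0s2 to -0.15 in KO CDAHFD, and Dgat2 to -0.0047 between the diets in KO mice.

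Few counts limit Mogat1, Pnpla3 and Mogat2, and 2 libraries limit KO chow.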
